A study of Schizosaccharomyces pombe with 6 samples.

Results

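The genes described here encode the cyclin-dependent kinase (CDK) that drives the fission yeast cell cycle, its cyclins and the proteins that switch it on and off. They were read from RNA-seq libraries of haploid Schizosaccharomyces pombe in 2 genotypes, with 3 biological replicates of a strain carrying the sad1.2 allele and a csi1 deletion (the mutant) and 3 of wt. They are 10 of the 7269 counted features, taken by identifier, with earlier results of these data known: cdc2 (SPBC11B10.09.1), cdc13 (SPBC582.03.1), cig1 (SPCC4E9.02.1), cig2 (SPAPB2B4.03.1), puc1 (SPBC19F5.01c.1), wee1 (SPCC18B5.03.1), mik1 (SPBC660.14.1), cdc25 (SPAC24H6.05.1), rum1 (SPBC32F12.09.1) and srw1 (SPAC144.13c.1, also called ste9). Cells of both genotypes were vegetative and asynchronous, grown in rich medium at 30 °C to an optical density of 0.5. The study asked whether centromere declustering affects gene expression at large. Sad1 and Csi1 are proteins of the nuclear envelope and spindle pole body region that hold centromeres there in interphase.

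In fission yeast a single kinase, Cdc2, drives both S phase and mitosis, and its cyclin partners set when it acts. Cdc13 is the B-type cyclin of mitosis, Cig2 the main S-phase cyclin, Cig1 a further B-type cyclin and Puc1 a G1 cyclin. In G2 the kinases Wee1 and Mik1 hold Cdc2 inactive by phosphorylating a tyrosine, and the phosphatase Cdc25 removes that phosphate to trigger mitosis. In G1 the inhibitor Rum1 binds the kinase, while Srw1 directs the anaphase-promoting complex (APC/C) to destroy mitotic cyclin. Much of this control acts on the proteins, which were not measured. In asynchronous cultures, a changed mRNA level per cell and a changed share of cells in a cycle stage cannot be told apart.

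Total counts lay between 19594442 and 19901180 in mutant libraries and between 19074531 and 19951875 in wt libraries. Of all features, 4941 had enough reads to be tested with edgeR's quasi-likelihood test, and all 10 cell-cycle genes were among them, with no count under 275. At an adjusted p under 0.05, 113 genes (2.29%) were higher and 6 (0.121%) lower in the mutant. Levels are given as CPM, the count scaled by sequencing depth with TMM normalization. The deleted csi1 stood at 7.60 ± 3.82 CPM in the mutant against 64.3 ± 0.834 CPM in wt (SD, n = 3 each; log2 fold change −3.08). Mutant replicate 3 and wt replicate 2 each stood apart from the other libraries of their genotype, by chi-square per degree of freedom between counts. For mutant replicate 3 it was 129 and 71.1 against replicates 1 and 2 (44.8 between those). For wt replicate 2 it was 141 and 109 against replicates 1 and 3 (9.96 between those). The deviations of both libraries from their own group means correlated at 0.67 across genes. The calls over all genes depended on single libraries. Without mutant replicate 2, wt replicate 1 or wt replicate 3, edgeR called 0 genes (932, 809 and 678 had an unadjusted p under 0.05). Leaving out mutant replicate 1 left 17 higher calls and 0 lower calls. With both libraries that stood apart left out, it called 716 higher and 309 lower. These libraries were picked for their distance from their group, which narrows the spread within groups, so that rise is not independent support. Left out alone, mutant replicate 3 gave 146 higher and 5 lower calls, and wt replicate 2 gave 83 higher and 5 lower. Why the calls rose with both left out was not tested. DESeq2 on all 6 libraries called 363 higher and 152 lower.

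Of the 10 genes, srw1 alone passed the test, as 1 gene higher and 0 lower, against 2.29% of all tested genes called higher and 2.41% in either direction. An unadjusted p under 0.05 was found for 5 of the 10 (srw1, mik1, cdc2, rum1 and cig2), against 22.6% of all tested genes. A further 5 had an expression range in the mutant that did not overlap the wt range without passing: mik1, rum1 and cig2 above, cdc2 and cig1 below. Counting srw1, every mutant library was above every wt library in 4 of 10 genes, against 16.7% of all tested genes, and below in 2 of 10, against 13.8% (30.5% of all tested genes in either direction). The median log2 fold change of the 10 genes was 0.07, and that of all tested genes 0.00. Ranked by log2 fold change among all tested genes, srw1 stood at percentile 94.2, mik1 at 88.4, cig2 at 80.0, rum1 at 79.2 and cdc2 at 12.3. In the authors' deposited table, srw1 and mik1 are the 2 of the 10 with an adjusted p under 0.05, and cdc2 follows at 0.0801.

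**Figure D1:**
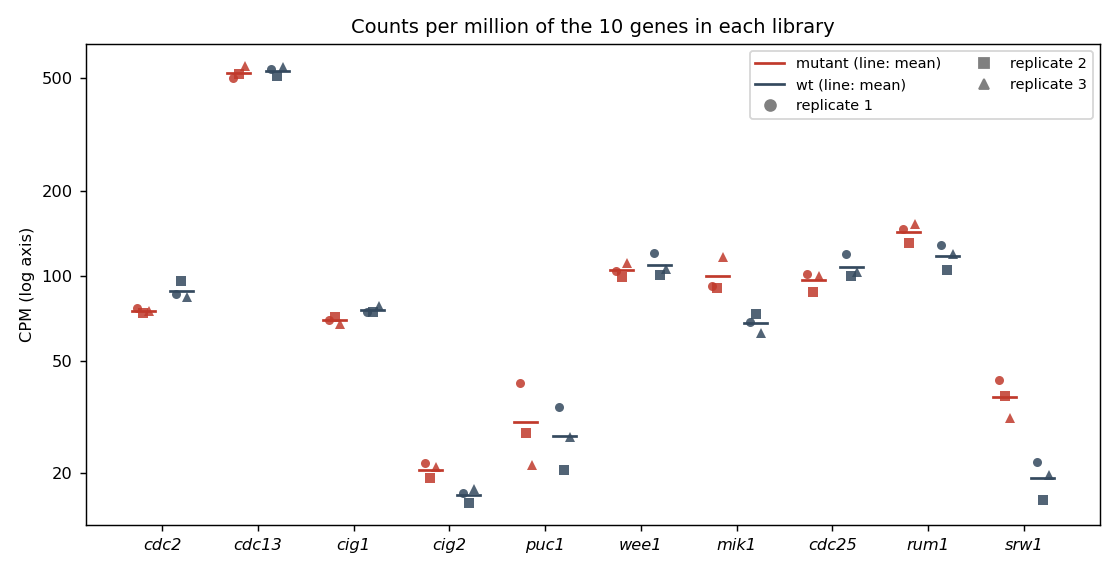
Depth-scaled counts (CPM, log axis) of each gene in every library, mutant left of wt, with symbols for the replicates and a line at each mean. For srw1 and mik1 the mutant points lie above all wt points, while cdc13, wee1, cdc25 and puc1 overlap between genotypes.

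Levels differed far more between these genes than between genotypes. They are given for that purpose as CPM per kb of unshared exonic length, which is the part not covered by another counted feature. In wt, cdc13 was highest at 189 ± 7.30 CPM per unshared kb (SD, n = 3), followed by cdc2 at 77.6 ± 5.23 and rum1 at 52.4 ± 5.40. Next came cig1 at 36.4 ± 1.05 and cdc25 at 35.3 ± 3.50, then wee1 at 26.98 ± 2.52 and mik1 at 24.8 ± 1.91 CPM per unshared kb. These neighbours overlapped between libraries within each pair. The lowest levels were those of cig2 at 17.3 ± 1.01, puc1 at 11.6 ± 2.94 and srw1 at 9.55 ± 1.45 CPM per unshared kb, and the ranges of puc1 and srw1 overlapped. In this order of wt levels srw1 came last of the 10. In the mutant the order was cdc13 at 186 ± 9.38, cdc2 at 65.9 ± 1.25 and rum1 at 63.8 ± 4.93 CPM per unshared kb, with cdc2 and rum1 overlapping. The mean of mik1, at 36.2 ± 5.17, was above those of cig1, at 33.5 ± 1.01, and cdc25, at 31.7 ± 2.53, but the libraries of these 3 genes overlapped. All mutant libraries had more mik1 than wee1, which was at 25.99 ± 1.45 CPM per unshared kb. Lowest in the mutant were cig2 at 21.3 ± 1.32, srw1 at 18.5 ± 2.83 and puc1 at 12.9 ± 4.47 CPM per unshared kb, and srw1 overlapped both others.

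The place of cig2 in that order is uncertain. Only 22.1% of its annotated length is unshared, the rest lying opposite the calcium pump gene pmc1 and a non-coding RNA. Reads from shared stretches appear to have been left out of the deposited counts, because 320 of the 347 coding features with no unshared base had 0 counts in every library. Over its full annotated length cig2 would stand at 4.71 CPM per kb in the mutant and 3.83 CPM per kb in wt, the lowest of the 10. The unshared shares of cdc2 and srw1 were 73.6% and 78.2%, and those of the other 7 genes at least 94.0%.

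Among the kinase and its cyclins, no gene passed the test. The kinase gene cdc2 had 76.7, 73.8 and 75.2 CPM in mutant replicates 1, 2 and 3, against 86.0, 95.4 and 84.4 CPM in wt replicates 1, 2 and 3. Every mutant library lay below every wt library, with log2 fold change −0.24 (SE 0.0804; adjusted p = 0.155 in edgeR). The mitotic cyclin gene cdc13 had 501, 515 and 552 CPM in the mutant, against 538, 508 and 548 CPM in wt. Its genotypes overlapped, and the log2 fold change was −0.02 with a 95% interval from −0.22 to 0.18. The ratio of cdc13 to cdc2 per unshared kb was higher in every mutant library than in any wt library, at 2.66, 2.84 and 2.99 in the mutant against 2.55, 2.17 and 2.64 in wt. The margin was narrow, with 2.66 in mutant replicate 1 only just above 2.64 in wt replicate 3. This ratio, like those given below, was picked with the results known.

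The S-phase cyclin gene cig2 had 21.7, 19.2 and 21.0 CPM in the mutant, against 17.0, 15.7 and 17.6 CPM in wt. All 3 mutant libraries were above all 3 wt libraries, with log2 fold change 0.30 (SE 0.116; adjusted p = 0.193 in edgeR). Its counts were the smallest of the 10 genes, at 487, 384 and 411 reads in the mutant and 338, 275 and 339 reads in wt libraries. In the mutant, weakly expressed coding genes that overlap no feature on the opposite strand gained a median of 3.18, 1.62 and 0.877 CPM per kb over the wt mean in replicates 1, 2 and 3. These genes were picked by their mean over all 6 libraries, mutant included, which can favour genes that are higher in the mutant. Subtracting these gains over the full annotated length turned the direction of cig2 (log2 −0.35, adjusted p = 0.515). That length includes the shared bases of cig2, whose reads appear to have been left out, so it can take off too much. Subtracting them over its unshared length did not (log2 0.25, adjusted p = 0.335).

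Neither of the other cyclin genes passed the test. For cig1, 70.0, 71.5 and 67.4 CPM in the mutant stood against 74.3, 74.3 and 78.1 CPM in wt, which did not overlap (log2 −0.12, SE 0.0733; adjusted p = 0.387 in edgeR). The G1 cyclin gene puc1 was the most variable of the 10 genes, with a coefficient of variation of 34.6% in the mutant and 25.3% in wt. It had 41.8, 27.7 and 21.4 CPM in the mutant, against 34.3, 20.5 and 26.8 CPM in wt, and the genotypes overlapped. Replicate 1 was the highest library in both genotypes. The 95% interval of its log2 fold change ran from −0.51 to 0.82, wide enough to hold a clear change in either direction.

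**Figure D2:**
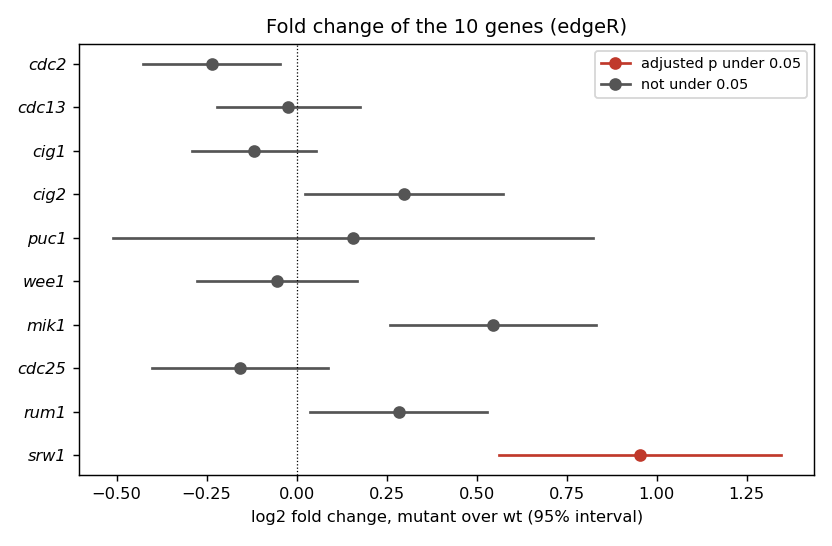
Log2 fold change of each gene, mutant over wt, with its 95% interval from the edgeR fit. The interval of srw1 runs from 0.56 to 1.35 and that of mik1 from 0.26 to 0.83, and srw1 is the gene with an adjusted p under 0.05.

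Of the inhibitory kinases, mik1 stood higher in the mutant while wee1 overlapped between genotypes. The gene mik1, whose product adds to Wee1 in restraining mitosis and whose transcription is known to peak at G1/S under the MBF factor, had 92.3, 90.5 and 116 CPM in the mutant, against 68.5, 73.4 and 62.9 CPM in wt. The lowest mutant library was above the highest wt library. At log2 fold change 0.54 (SE 0.121), mik1 narrowly missed the threshold in edgeR (adjusted p = 0.0633) and passed it in DESeq2 (0.00448). It also passed in edgeR with plain library sizes (log2 0.66, adjusted p = 0.0369). It passed too without mutant replicate 3 and wt replicate 2 together (log2 0.47, edgeR adjusted p = 0.00697), a choice that narrows the spread within groups. It missed in the other 13 of 16 alternatives, with adjusted p up to 0.248 (without wt replicate 3). In the authors' deposited table mik1 has a log2 fold change of 0.47 with an adjusted p of 0.00768. Mutant replicate 3 had the highest mik1 level of the 6 libraries. The neighbouring ssb1, an MBF target on the opposite strand, overlaps the annotated mik1 by 1 base.

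The main mitotic inhibitor gene wee1 had 104, 99.3 and 111 CPM in the mutant, against 120, 100 and 106 CPM in wt. Its log2 fold change was −0.05, with a 95% interval from −0.28 to 0.17 (edgeR adjusted p = 0.782). The activating phosphatase gene cdc25 had 102, 87.6 and 100 CPM in the mutant, against 120, 99.7 and 104 CPM in wt. This was a log2 fold change of −0.16 with an interval from −0.40 to 0.09 (edgeR adjusted p = 0.414), and the genotypes overlapped.

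Ratios within a library do not depend on how libraries are scaled. They were picked with the results known and are given as a description. The level of wee1 relative to cdc25 per unshared kb was 0.773, 0.856 and 0.838 in the mutant, against 0.757, 0.761 and 0.773 in wt, with the lowest mutant value just within the wt range. For mik1 relative to cdc25 the values were 1.00, 1.14 and 1.28 in the mutant, against 0.634, 0.816 and 0.673 in wt. Both kinases summed, relative to cdc25, stood at 1.78, 2.00 and 2.12 in the mutant, against 1.39, 1.58 and 1.45 in wt. The mRNA balance between the tyrosine kinases and the phosphatase was thus shifted toward the kinases in all 3 mutant libraries, and most of that shift came from mik1.

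**Figure D3:**
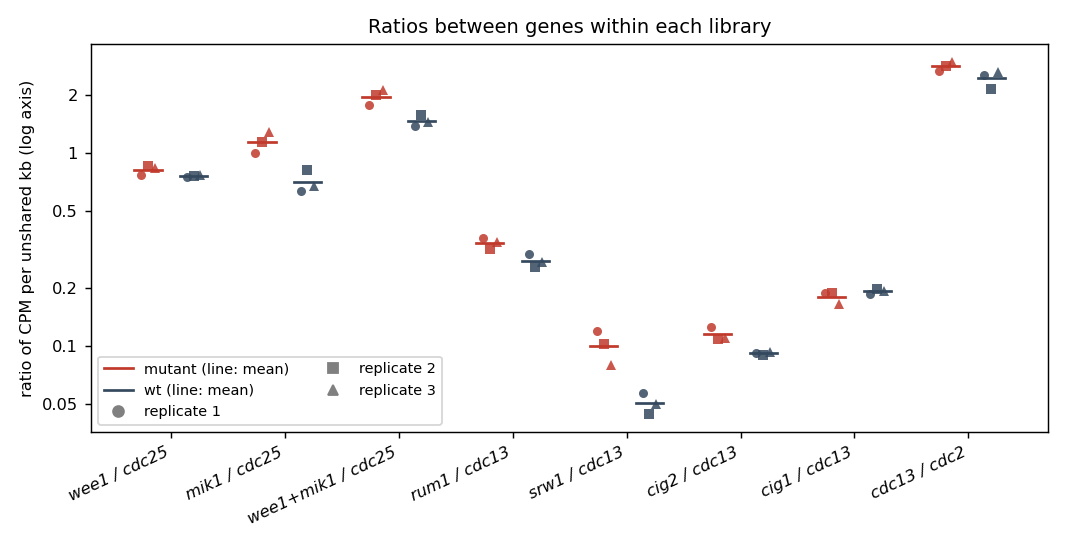
Ratios of CPM per unshared kb between named genes within each library (log axis), mutant left of wt, with symbols for the replicates and a line at each mean. The mik1 to cdc25, rum1 to cdc13, srw1 to cdc13 and cig2 to cdc13 ratios do not overlap between genotypes, and the wee1 to cdc25 and cig1 to cdc13 ratios do.

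Both inhibitors of mitotic CDK in G1 stood above wt in every mutant library, and srw1 passed the test. The APC/C activator gene srw1 had 42.9, 37.7 and 31.5 CPM in the mutant, against 22.0, 16.2 and 19.7 CPM in wt. The lowest mutant library, at 31.5 CPM, was above the highest wt library, at 22.0 CPM. The fitted fold change over all 6 libraries was 1.94 (log2 0.95, SE 0.166, edgeR adjusted p = 0.0418). In the authors' deposited table srw1 has a log2 fold change of 0.78 with an adjusted p of 5.6e-05. It lies partly opposite rki1, a sugar phosphate isomerase gene, whose log2 fold change was −0.30 (edgeR adjusted p = 0.135). Whether reads from rki1 enter the srw1 count was not tested. The srw1 call sat near the threshold. It was lost without mutant replicate 1 or 2 (adjusted p of 0.160 and 0.140), and without wt replicate 1, 2 or 3 (0.102, 0.0588 and 0.198). Plain library sizes (0.0526), replicate number as a block (0.102) and the subtraction over unshared length (0.0649) also ended it. Over the 16 alternatives run, srw1 kept its direction, with log2 fold changes between 0.82 and 1.08.

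The CDK inhibitor gene rum1 had 146, 131 and 152 CPM in the mutant, against 128, 104 and 120 CPM in wt. The groups did not overlap, though the lowest mutant value was only just above the highest wt value, and the log2 fold change of 0.28 did not pass (SE 0.104; adjusted p = 0.172 in edgeR). Relative to cdc13 per unshared kb, rum1 stood at 0.365, 0.318 and 0.345 in the mutant, against 0.298, 0.257 and 0.274 in wt. For srw1 relative to cdc13 the mutant had 0.119, 0.102 and 0.0793, against 0.0568, 0.0442 and 0.050 in wt. Both ratios were higher in every mutant library than in any wt library. With cdc13 almost level (log2 −0.02), they largely restate the differences of rum1 and srw1 themselves. How often ratios of other gene pairs separate in this way was not tested.

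**Figure D4:**
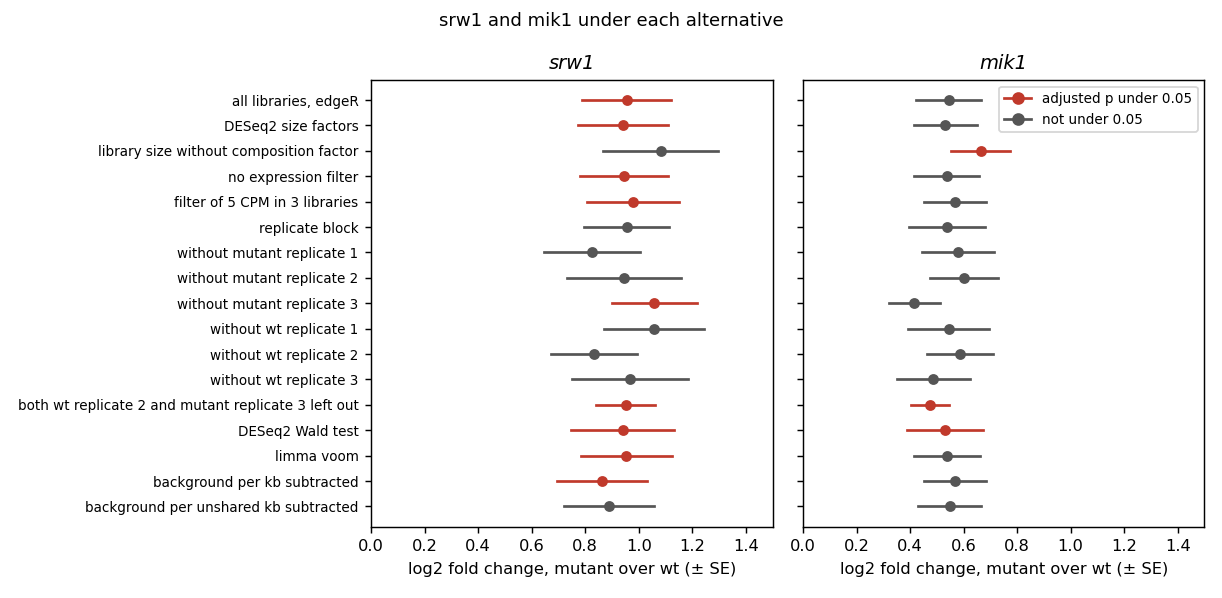
Log2 fold change (± SE) of srw1 and mik1 with all libraries and under each alternative, coloured by whether the adjusted p was under 0.05. Both genes stay above 0 throughout, srw1 between 0.82 and 1.08 and mik1 between 0.42 and 0.66, while the call comes and goes.

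Rum1 and Srw1 are known to act in the G1 arrest that precedes mating, so genes of that state were read beside them. Of 13 mating and meiotic genes, 11 were tested, and mei3, fus1, mfm1 and mei2 were called higher, against 2.29% of all tested genes. Their log2 fold changes were 2.77, 1.10, 1.80 and 1.39. The largest were those of weakly expressed genes. On average mei3 had 3.42 CPM in the mutant against 0.502 CPM in wt, and mfm1 6.55 against 1.88 CPM. With the background gains subtracted over annotated length, edgeR called 0 of the 11, and over unshared length 1. Without mutant replicate 1 or 2, or wt replicate 1 or 3, it called 0 of them, and without wt replicate 2 it called 2. The summed level of the 13 ran from 225 to 322 CPM in mutant libraries and from 179 to 196 CPM in wt libraries. In this sum mfm3 and ste6 stood at 0 in every library, but they have no unshared base, so their zeros do not show silence. The median deviation from the wt mean was 1.27, 0.82 and 0.60 on the log2 scale in mutant replicates 1, 2 and 3, and srw1 had 42.9, 37.7 and 31.5 CPM in the same libraries. The background gain of weakly expressed genes in these libraries (3.18, 1.62 and 0.877 CPM per kb) ran in that order too. This shared order rests on 3 libraries, and a part of the mating state in the srw1 result was not tested. The subtraction concerns the background alone. It left srw1 at log2 0.86 over annotated length (edgeR adjusted p = 0.0478) and 0.89 over unshared length (0.0649). The regulator gene ste11 was at 54.3 ± 20.1 CPM in the mutant against 57.2 ± 25.4 CPM in wt (SD, n = 3 each; edgeR adjusted p = 0.935).

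Other genes of the network were read by list, and 0 calls in a list of this size say little where 2.41% of all tested genes were called in either direction. Of 12 genes that act on Wee1, Mik1 or Cdc25 or stand in their pathway, 0 were called by edgeR in either direction (4 had an unadjusted p under 0.05, against 22.6% of all tested genes; DESeq2 called 1 lower). Their median log2 fold change was −0.02, against 0.00 for all tested genes. The closest was skb1, a methyltransferase gene of the Cdr pathway, at 247 ± 17.3 CPM in the mutant against 327 ± 6.69 CPM in wt (SD, n = 3 each; log2 −0.40, edgeR adjusted p = 0.0557). It was named after its value was seen. Of 16 tested genes for the CDK partner Suc1, the CDK-activating kinases and other CDKs and cyclins, 0 were called by edgeR (2 at an unadjusted p under 0.05, and 0 by DESeq2), with a median of 0.05. The suc1 gene itself had 73.5 ± 0.468 CPM in the mutant against 81.4 ± 1.60 CPM in wt (SD, n = 3 each), an edgeR adjusted p of 0.261. Of 12 genes for phosphatases that oppose CDK and for the Greatwall and endosulfine proteins that restrain one of them, 0 were called by edgeR (2 at an unadjusted p under 0.05, and 1 higher by DESeq2), with a median of −0.12.

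Among 19 tested genes of the ubiquitin ligases that destroy cyclins and Rum1, slp1 was called higher, against 2.29% of all tested genes. It encodes the APC/C activator of anaphase and had 275 ± 36.6 CPM in the mutant against 161 ± 9.75 CPM in wt (SD, n = 3 each; log2 0.77, edgeR adjusted p = 0.0261). It and srw1 are thus the called genes among the APC/C activators and ligase subunits read here. The call was lost without mutant replicate 1 or 2 and without wt replicate 1 or 3. The list median was 0.10, with 15 positive and 4 negative log2 fold changes, against 2506 positive and 2435 negative over all tested genes. An unadjusted edgeR p under 0.05 was found for 3 of the 19, against 22.6% of all tested genes. Every mutant library was above every wt library in 4 of the 19, against 16.7%, and below in 1, against 13.8%.

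Genes outside the 10 whose transcription is timed to the cell cycle were read in the same way. Of 11 tested G1/S targets of MBF, cdt1, cdc22, msh6 and ssb1 were called higher, at log2 fold changes of 1.23, 1.03, 0.82 and 0.48, against 2.29% of all tested genes, and 0 were called lower. DESeq2 called 8 of the 11 higher, and edgeR called 2 without mutant replicate 1. Without mutant replicate 3 and wt replicate 2 together, a choice that narrows the spread within groups, edgeR called 10. The list median was 0.59, against 0.30 for cig2 and 0.54 for mik1, which are MBF targets themselves. The replication licensing gene cdc18 had 76.7 ± 14.8 CPM in the mutant against 46.9 ± 7.22 CPM in wt (SD, n = 3 each; log2 0.71, edgeR adjusted p = 0.0788). The targets psm3, mrc1, ctp1 and dut1 have no unshared base, were listed at 0 in every library and were not tested. As reads from shared stretches appear to have been left out, these zeros do not show that the genes were silent. Of 14 tested M/G1 genes under the forkhead and PBF factors, spo12, fin1 and slp1 were called higher, at 1.13, 0.53 and 0.77, against 2.29% of all tested genes, with a list median of 0.32. DESeq2 also called 3, and edgeR called 5 without mutant replicate 3 and wt replicate 2 together and 0 without mutant replicate 1. Without mutant replicate 2, wt replicate 1 or wt replicate 3, every one of these G1/S and M/G1 calls was lost, as was every call over all genes. These lists were chosen with earlier results of these data known.

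**Figure D5:**
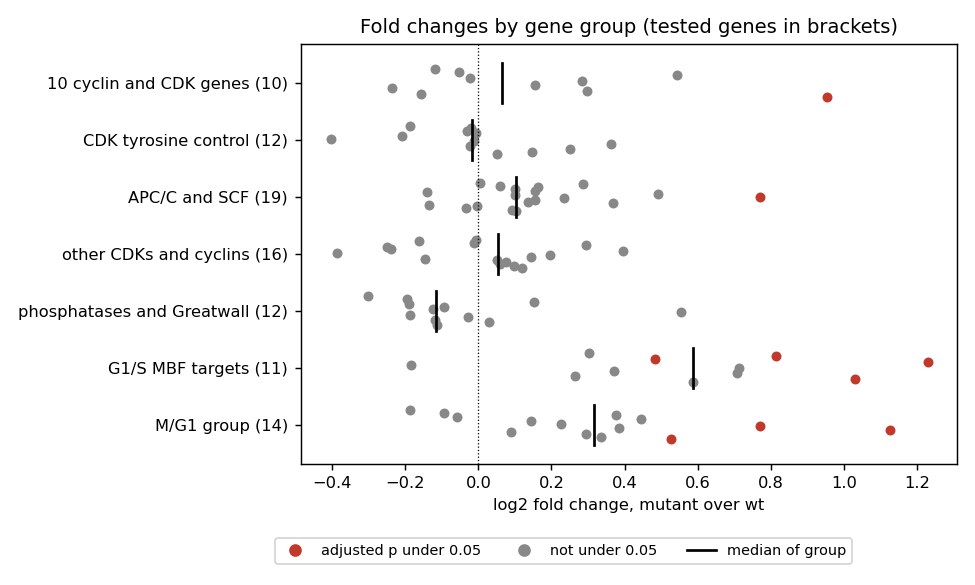
Log2 fold changes, mutant over wt, of the tested genes in each group, with a black line at the group median. The G1/S MBF targets (median 0.59) and the M/G1 group (median 0.32) lie mostly to the right, while the 10 cyclin and CDK genes spread on both sides of 0 with srw1 farthest right at 0.95.

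For cig2, mik1 and cdc25, the genes with the most similar profile over the 6 libraries were looked up by the Euclidean distance between log2 CPM values centred on the wt mean. The nearest to cig2 were the ubiquitin protease gene sst2, the APC/C cullin gene apc2 and the transcription factor gene toe4, at distances of 0.0844, 0.0897 and 0.0911. For mik1 they were SPAC2E1P3.01, the ergothioneine synthesis gene egt1 and the non-coding RNA SPNCRNA.1648, at 0.107, 0.125 and 0.147. For cdc25 they were the contractile ring anchor gene fic1, the cytochrome oxidase assembly gene coa2 and csc2, which encodes a FAR complex subunit, at 0.123, 0.143 and 0.146. None of these 9 genes was called by edgeR, with adjusted p between 0.0694 and 0.585. The distance uses the same 6 libraries as the test, so fold changes near those of cig2, mik1 and cdc25 follow from the choice. SPNCRNA.1648 was weakly expressed, at 1.48 CPM in the mutant against 0.854 CPM in wt.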

How the data were processed

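RNA-seq was carried out on 3 mutant and 3 wt cultures. Per the labels' protocols, 5 µg of total RNA per library went through oligo-dT selection and paired-end sequencing. The authors deposited raw counts per transcript identifier, 1 table per library. The submitters' processing notes name the aligner HISAT2, the counter HTSeq, DESeq2 and genome build ASM294v2. Versions, strand setting and annotation release were not stated there or in the labels. The authors' deposited table holds log2 fold changes and adjusted p-values of their own comparison. Its csi1 value is −1.83, so it runs mutant over wt. Its 18 columns of normalized values were left aside.

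Names, feature classes, overlaps and exon lengths came from the RefSeq annotation of ASM294v3, in which 6848 of 7269 identifiers matched, and no coordinates are given because the builds differ. If the authors' annotation differed, unshared lengths would too. The main test was edgeR 4.0.16 (R 4.3.3), quasi-likelihood with robust estimation, TMM normalization, genotype as the only term and filterByExpr (minimum count 10, minimum total 15), with Benjamini-Hochberg adjustment over all 4941 tested genes. CPM are counts over TMM-scaled library sizes. Standard errors come from the test statistic, and 95% intervals from its degrees of freedom. With 3 libraries against 3, an exact permutation test cannot go below p = 0.1. Weakly expressed genes for the background gain were the 88 coding genes outside the lists with a mean from 1 to 10 CPM over all 6 libraries, both genotypes included.

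Alternatives were DESeq2 size factors, plain library size, no filter, 5 CPM in 3 libraries, a replicate block, each library left out, mutant replicate 3 and wt replicate 2 left out together, DESeq2 1.42.0, limma voom 3.58.1 and the background subtraction. The subtraction over unshared length was added after seeing the data. Libraries of a genotype differed by a chi-square per degree of freedom of at least 9.96, so no pair was a duplicate. The fit was tested on simulated data. The 10 genes, the lists and the rule for named genes were chosen with earlier results of these data known. The rule takes the 10 genes, csi1 and sad1, up to 4 called genes per list, cdc18, cdt1 and the 3 nearest genes of cig2, mik1 and cdc25. Of these, sad1 was at 153 ± 6.81 CPM in the mutant against 81.8 ± 1.66 CPM in wt (SD, n = 3 each). It was called higher, at log2 fold change 0.90 (edgeR adjusted p = 0.00639).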

Additional observations from a re-analysis of the deposited data

How the results depend on the processing

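Of the 10 genes, the number called higher was 1 in edgeR with all libraries and between 0 and 1 with each library left out. It was 0 with the replicate block and 0 with the subtraction over unshared length, and 2 in DESeq2 and 2 without mutant replicate 3 and wt replicate 2 together, where the second was mik1. With plain library sizes the count was also 1, but the gene was mik1 and not srw1. None of the 10 was called lower under any alternative run. Plain library sizes moved the median of all genes by 0.12 on the log2 scale, and relative to that shift cdc13, cig1 and wee1, which turned positive at 0.096, 0.0058 and 0.064, stood below 0. The sign of cdc13 also turned with the subtraction over annotated length (0.067) and over unshared length (0.046). That of cig2 turned with the subtraction over annotated length (−0.35), which includes its shared bases. With 1 library left out, puc1 ranged from −0.17 (without mutant replicate 1) to 0.35 and was −0.020 without wt replicate 2, and wee1 ranged from −0.12 to 0.019 (without wt replicate 1). The cause was not tested.

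Over all genes, the 113 higher calls became 73 under the filter of 5 CPM, 0 with the block, 716 without both libraries that stood apart, 363 in DESeq2, 41 with the subtraction over unshared length and from 0 to 146 with 1 library left out. The 6 lower calls became 3 with plain library sizes, 3 under that filter, 0 with the block, 309 without both libraries that stood apart, 152 in DESeq2, 3 in limma voom, 82 with the subtraction over annotated length (beside 83 higher) and from 0 to 5 with 1 library left out. Same-numbered libraries deviated together at correlations of 0.47, −0.49 and −0.56, so the numbers do not pair them, and mutant replicate 1 was the single mutant library to correlate best with its own number. Every count of the 10 genes was 275 or more.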
